A study of Mus musculus with 16 samples.

Results

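Ribosome footprints of 3 Nat1-/- lines of mouse embryonic stem cells were compared with those of 2 wild-type (WT) cultures. The comparison was made gene by gene over every gene whose footprint values averaged at least 10 across the 8 footprint libraries, which kept 13110 of the 21977 genes in the table. The Nat1-/- lines, B12, B2 and C3, and the WT cultures, WTex1 and WTex2, gave 5 of the study's 16 libraries here. The other libraries were footprints of 3 Nat1+/- lines (A7, B4 and C1) and total RNA of the same 8 cultures, and they enter as shared spread and as a second readout. All cultures grew on gelatin-coated plates in stem cell medium with LIF, the cytokine that keeps mouse embryonic stem cells self-renewing. The labels name RF8, a mouse embryonic stem cell line, as the WT line and give its 2 cultures as replicates, and they call each Nat1-/- and Nat1+/- culture a line of its own without saying how it was made. P-values therefore measure the spread between these cultures, and what is particular to RF8 or to the making of the mutant lines cannot be told apart from the genotype.

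Nat1 is an older name of Eif4g2, a relative of the scaffold protein eIF4G. It binds eIF4A and eIF3 as eIF4G does but lacks the part that holds the cap-binding protein eIF4E, and it is known for supporting cap-independent or otherwise selective initiation. Mouse embryonic stem cells without it are known to self-renew and to differentiate poorly. In ribosome profiling, RNA outside the ribosome is digested and the protected fragments are sequenced, so a gene's footprint count follows both how much mRNA a cell holds and how densely ribosomes occupy it. The study's title places the question in proteins whose translation Nat1 promotes during differentiation.

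Footprint libraries held 17480387 to 23777667 assigned reads, and 3 reads, the limit that a count of 0 allows, corresponded to at most 3.42 normalised reads. Values below are the deposited normalised reads (RPF values), fold changes are differences of log2(value + 1) with their standard error (SE), and a gene was called at a limma adjusted p under 0.05. The added 1 understates the change of low genes, and the fold change of a gene near 0 depends on it and is no bound. Stem cell markers were present in every culture: Pou5f1 had 28526, 23431 and 18852 normalised reads in B12, B2 and C3, against 17038 and 16894 in WTex1 and WTex2 (adjusted p = 0.12).

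The targeted gene followed the labels. Eif4g2 had 1089, 1114 and 922 normalised reads in B12, B2 and C3, against 17666 and 13862 in WTex1 and WTex2, with 10261, 7608 and 7275 in the Nat1+/- lines A7, B4 and C1. All 3 Nat1-/- values lay below every other culture, the mean was 6.61% of the WT mean, and the log2 fold change was -3.91 ± 0.19 (adjusted p = 7.8e-06). An exact two-sided permutation test of the 3 and 2 values gave p = 0.1, the smallest its 10 arrangements allow. Total RNA of Eif4g2 stood at 23.3% of WT. The labels do not say which part of the gene was altered, so the remaining reads cannot be placed.

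Whole chromosomes also stood apart between the cultures, a pattern looked at after the data were seen. The median deviation of the 563 chromosome 8 genes with a mean of at least 100 was -0.23, -0.24 and -0.22 in B12, B2 and C3, 0.19, 0.07 and 0.17 in the Nat1+/- lines, and 0.17 in both WTex1 and WTex2. Chromosome 11, with 830 such genes, had -0.07, -0.09 and -0.07 in Nat1-/-, -0.22, 0.09 and -0.11 in Nat1+/- and 0.25 and 0.27 in WT. On 17 of 20 chromosomes the 3 Nat1-/- medians lay above both WT medians, on 2 (8 and 11) below, and on 1 (X) they overlapped, and total RNA gave the same 3 counts. Of 731 tested genes on chromosome 8, 28 were higher (3.83%) and 281 lower (38.4%). Of 1091 on chromosome 11, 70 were higher (6.42%) and 331 lower (30.3%). Among all genes 16.5% were higher and 18.3% lower. Chromosome 9 leaned the other way, with 173 of 748 genes higher and 83 lower. The cultures' chromosome copy numbers were not measured here, and the part of these differences in the gene results was not tested. Values with each chromosome's median set to 0 in every culture (chromosome medians centred) are therefore given wherever they remove a call or move a count by over 1.5 times. Under that setting 3513 of the 4567 calls described next, and 1689 of the 1699 held ones, stayed called in the same direction.

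**Figure D1:**
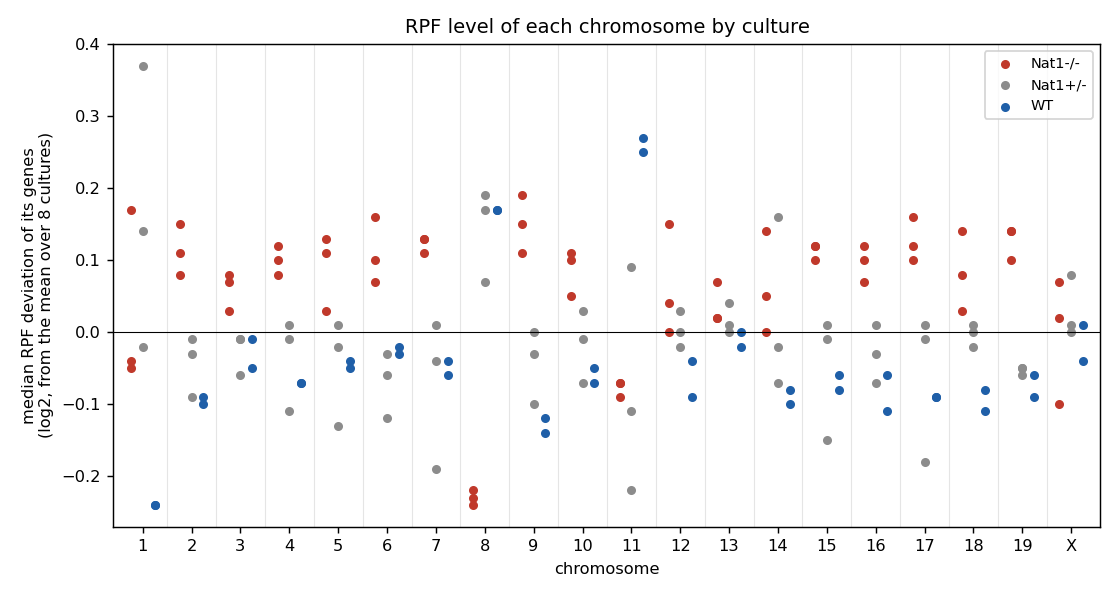
Median deviation, on the log2 scale, of the footprint values of each chromosome's genes from their mean over the 8 cultures, 1 point per culture, with Nat1-/- left of Nat1+/- and WT. Chromosome 8 lies at -0.22 to -0.24 in the 3 Nat1-/- lines and at 0.17 in both WT cultures.

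In all, 4567 of the 13110 genes (34.8%) were called, 2167 higher (16.5%) and 2400 lower (18.3%) in Nat1-/- than in WT cultures. With libraries scaled to equal sums the split was 1558 higher and 2743 lower, and the median log2 fold change of all genes moved by 0.11, to -0.08 from 0.03 as deposited. Values of the 3 lines and the 2 WT cultures did not overlap for 7811 genes (59.6%), 30.7% with Nat1-/- higher and 28.9% with Nat1-/- lower. Called genes with at least a 4-fold change numbered 201 higher and 1044 lower, and at least 8-fold 58 higher and 563 lower. A call was taken as held where the gene was called in the same direction without each of the 8 cultures in turn and the groups did not overlap, which was so for 1699 genes (13.0%), 641 higher (4.89%) and 1058 lower (8.07%). Most genes named below were chosen as held, so their lack of overlap was fixed by that rule and is no further support. Without WTex1 1932 genes were called, 741 of them higher and 1191 lower, and without WTex2 2586, 1159 of them higher. Without B2 the higher calls numbered 1315.

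The direction of the calls differed with a gene's abundance. Of 2154 genes with a mean RPF value of 10 to 50, 5.52% were higher and 33.9% lower, with a median log2 fold change of -0.73. Between 50 and 1000, 17.5% of 6899 genes were higher and 18.3% lower. Among 4057 genes with a mean of at least 1000, 843 (20.8%) were higher and 407 lower, and the median was 0.14. The minimum itself acts here: 842 genes reached it with a WT mean of at least 10 and a Nat1-/- mean under 10, and 148 the other way round. Any gene given below with a Nat1-/- mean under 10 passed it only through the other cultures, which favours a lower call. Of the genes tested, 14 had no footprint read in any Nat1-/- line.

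**Figure D2:**
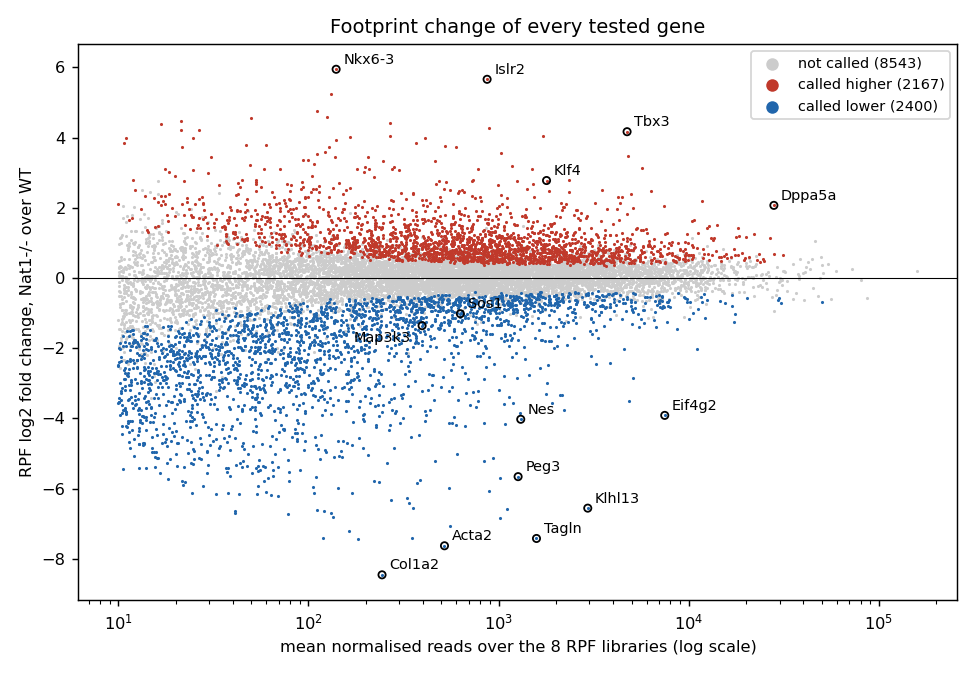
Log2 fold change of RPF values, Nat1-/- over WT, against the mean RPF value over 8 libraries (log scale), 1 point per gene, with called genes coloured and a few named. Toward low means on the left, calls are mostly decreases: 33.9% of genes with a mean of 10 to 50 were lower and 5.52% higher.

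The widest increases were in a homeobox factor, membrane and signalling proteins and metabolic enzymes, and only some were at high values. Nkx6-3, a homeobox transcription factor, had 487, 281 and 198 in Nat1-/- and 3.88 and 3.87 in WT (log2 fold change 5.95 ± 0.70, adjusted p = 3.0e-04). Islr2, a leucine-rich-repeat membrane protein of neurons, had 1965, 2195 and 2464 in Nat1-/- and 40.4 and 44.5 in WT (log2 fold change 5.66 ± 0.52, adjusted p = 8.3e-05). Ppp1r14d, an inhibitor of protein phosphatase 1, had 239, 345 and 329 in Nat1-/- and 6.99 and 6.78 in WT (log2 fold change 5.26 ± 0.34, adjusted p = 1.9e-05). In each of these genes every Nat1-/- value was several times the highest WT value, and the Nat1+/- lines lay between or near WT (55.3, 11.1 and 78.7 for Nkx6-3 in A7, B4 and C1). Hal, histidine ammonia-lyase, which starts histidine breakdown, had 269, 183 and 133 in Nat1-/- and 3.11 and 10.7 in WT (log2 fold change 4.77 ± 0.51, adjusted p = 1.8e-04). Hal was the exception among the 32 genes named for the width of their change in that A7, at 145, lay inside the Nat1-/- range. Ldhal6b, a lactate dehydrogenase-like enzyme, had 162, 369 and 403 in Nat1-/- and 8.55 and 14.5 in WT (log2 fold change 4.58 ± 0.44, adjusted p = 1.1e-04). Rapgef3, a Rap exchange factor that cAMP activates, had 520.4, 629 and 629 in Nat1-/- and 23.3 and 31 in WT (log2 fold change 4.41 ± 0.66, adjusted p = 9.7e-04). Total RNA of Ldhal6b was higher by less, and the difference between footprints and RNA was 1.98 on the log2 scale. That difference passed the test with a term for each culture (adjusted p = 0.014) and not without it (adjusted p = 0.92). Inhbb, a subunit of activin B, had 2773, 1707 and 1331 in Nat1-/- and 60.6 and 147 in WT (log2 fold change 4.27 ± 0.48, adjusted p = 2.5e-04). Sema7a, a membrane-anchored semaphorin, had 474, 637 and 701 in Nat1-/- and 35 and 35.8 in WT (log2 fold change 4.04 ± 0.31, adjusted p = 3.6e-05). These 2 encode signalling proteins that reach the cell surface or medium.

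**Figure D3:**
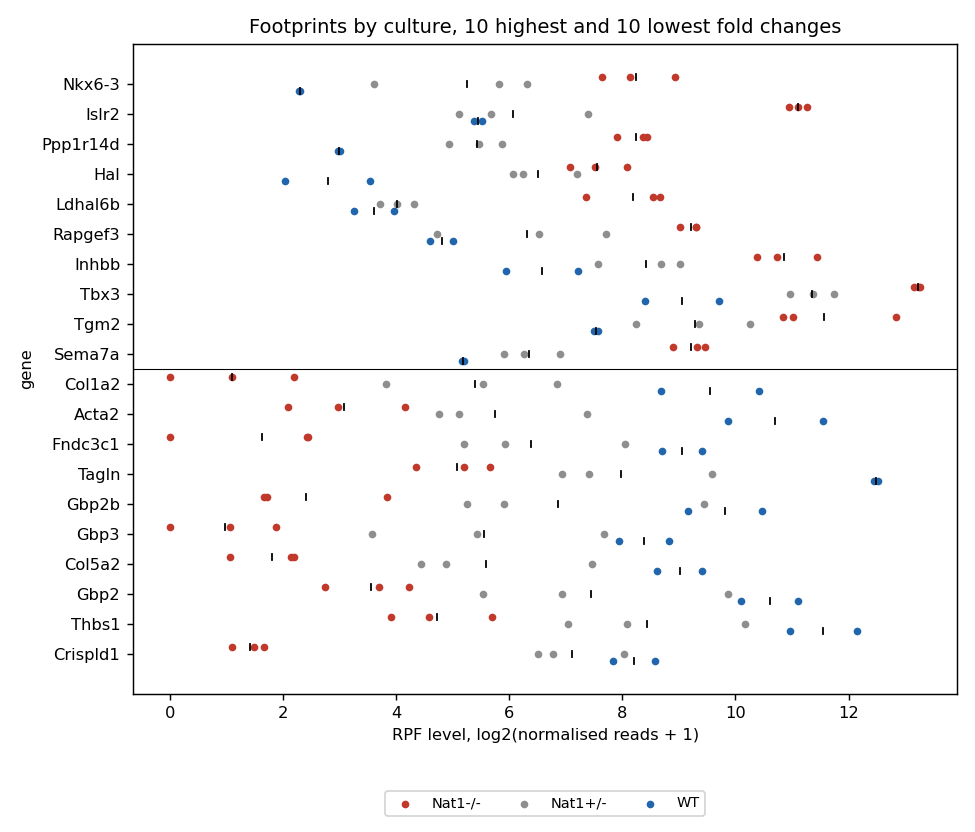
RPF level, log2(value + 1), on the horizontal axis for the genes with the widest held changes, 1 point per culture. Within each gene's row Nat1-/- is drawn above Nat1+/- and WT. In 31 of 32 genes named for width or abundance the 3 Nat1-/- values lie outside all 5 other cultures, and in 31 the Nat1+/- mean lies between the Nat1-/- and WT means. These genes, not all of them shown, were chosen for wide held gaps between Nat1-/- and WT, which favours both counts.

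Among genes with a mean of at least 1000 the widest increases were led by Tbx3 and Tgm2. Tbx3, a T-box factor of the naive stem cell network, had 9744, 9836 and 9097 in Nat1-/- and 336 and 834 in WT (log2 fold change 4.17 ± 0.34, adjusted p = 5.0e-05). Tgm2, tissue transglutaminase, had 1842, 2082 and 7291 in Nat1-/- and 179 and 189 in WT (log2 fold change 4.04 ± 0.62, adjusted p = 0.0012). C3 stood above the other lines in Tgm2, while Tbx3 was even across them. Epas1, the oxygen-sensitive factor HIF-2 alpha, had 2005, 2665 and 2366 in Nat1-/- and 242 and 262 in WT (log2 fold change 3.20 ± 0.25). Lrp1, an endocytic receptor, had 4591, 8983 and 18647 in Nat1-/- and 704 and 1515 in WT (log2 fold change 3.15 ± 0.51). Laptm5, a lysosomal membrane protein, had 2890.3, 2903 and 2597 in Nat1-/- and 306 and 338 in WT (log2 fold change 3.12 ± 0.37). Lrp1 varied among the lines themselves, with B12 lowest, yet all 3 lay above WT. Klf4, a naive pluripotency factor, had 3662, 2909 and 3056 in Nat1-/- and 410.2 and 526 in WT (log2 fold change 2.78 ± 0.30). Zfp229, a zinc-finger protein, had 2010.4, 2576 and 2670.2 in Nat1-/- and 329 and 373 in WT (log2 fold change 2.77 ± 0.19). D1Pas1, a DEAD-box helicase gene closely related to Ddx3x, had 1059, 2187 and 2457 in Nat1-/- and 131 and 176 in WT (log2 fold change 3.55 ± 0.36). Reads of D1Pas1 and its relatives may have been split by the authors' counting, so its change is uncertain. For these 6 genes, from Epas1 to D1Pas1, adjusted p lay between 2.2e-05 and 0.0014.

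The widest decreases were in matrix and contractile genes and in guanylate-binding proteins. Col1a2, a chain of type I collagen, had 0, 3.55 and 1.14 in Nat1-/- and 412 and 1362 in WT (log2 fold change -8.46 ± 0.90, adjusted p = 1.8e-04). Acta2, smooth muscle alpha-actin, had 3.24, 16.9 and 6.84 in Nat1-/- and 928 and 2976 in WT (log2 fold change -7.63 ± 0.83, adjusted p = 2.0e-04). Tagln, the actin-binding protein transgelin, had 35.6, 49.7 and 19.4 in Nat1-/- and 5906 and 5593 in WT (log2 fold change -7.42 ± 0.66, adjusted p = 7.5e-05). All 3 genes were low in the lines and far higher in WT, and WTex1 lay well below WTex2 in the first 2. Col5a2, a chain of type V collagen, had 1.08, 3.55 and 3.42 in Nat1-/- and 392.3 and 681 in WT (log2 fold change -7.22 ± 0.80). Thbs1, thrombospondin 1, a matrix glycoprotein, had 14, 50.6 and 22.8 in Nat1-/- and 1992 and 4541 in WT (log2 fold change -6.83 ± 0.81). Crispld1, a cysteine-rich secretory protein, had 2.16, 1.78 and 1.14 in Nat1-/- and 379.9 and 228 in WT (log2 fold change -6.79 ± 0.48). Fndc3c1, an X-linked fibronectin type III domain protein, had 4.32, 4.44 and 0 in Nat1-/- and 681 and 417 in WT (log2 fold change -7.44 ± 0.89). In these 4 genes too each WT value was far above every Nat1-/- value (adjusted p between 2.7e-05 and 3.3e-04). B4 carried the highest Nat1+/- values, with 164 for Acta2 against 26 in A7 and 33.6 in C1.

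The marker lists of fibroblasts with extracellular matrix and of smooth muscle showed the same direction. Of 24 fibroblast and matrix genes listed, 19 were tested (median log2 fold change -3.81). Of these 0 were higher and 15 lower (78.9%), 10 with a held decrease. Over all genes tested 16.5% were higher and 18.3% lower, and 33.9% were lower at a mean of 10 to 50. Members with a Nat1-/- mean under 10, such as Col1a2, passed the minimum only through the other cultures, which favours a lower call. Without B12 the counts of higher and lower genes were 1 and 17, and without B2 0 and 13. Fewer genes were also lower without either WT culture. Such a fit holds 1 WT culture, so only its median log2 fold change is given here, -3.83 without WTex1 and -3.45 without WTex2. Timp3, a matrix metalloproteinase inhibitor, had 6.48, 15.1 and 6.84 in Nat1-/- and 168 and 262 in WT (log2 fold change -4.43 ± 0.49). Of 17 smooth muscle and contractile genes listed, 16 were tested (median log2 fold change -1.69). Of these 0 were higher and 10 lower (62.5%), of which 8 lower held. Tpm1, a tropomyosin, had 1191, 1088 and 1181 in Nat1-/- and 14199.9 and 11984 in WT (log2 fold change -3.50 ± 0.26). Cnn2, a calponin, had 274, 273 and 342 in Nat1-/- and 2351 and 2019.6 in WT (log2 fold change -2.88 ± 0.23). Cald1, caldesmon, which binds actin and myosin, had 271, 166 and 199 in Nat1-/- and 1929.7 and 3213 in WT (log2 fold change -3.58 ± 0.32). For these 4 genes adjusted p lay between 3.3e-05 and 2.2e-04. Summed over the whole lists, the fibroblast genes reached 27110, 42630 and 83030 in B12, B2 and C3, against 36570 and 59790 in WTex1 and WTex2, with 7, 3 and 6 members at 0 against 2 and 2 of 24. The fibroblast sums overlapped between the groups. The smooth muscle sums were 25820, 35950 and 47540 in Nat1-/- and 52800 and 66350 in WT, and none of the 17 members was at 0 in any of these cultures. The fibroblast defining genes Dcn, Lum and Lox were under the minimum of 10 and were not tested. In bulk cultures fewer cells of a type and less RNA per cell cannot be told apart, and the part of other cell types in these decreases was not tested.

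Abundant genes that fell most included, beside Tagln, Thbs1 and Col1a1, regulators of growth factors and an imprinted gene. Klhl13, an X-linked substrate adaptor of a ubiquitin ligase, had 37.8, 97.7 and 108 in Nat1-/- and 6058 and 8168 in WT (log2 fold change -6.56 ± 0.41). Igfbp3, which binds insulin-like growth factors, had 71.3, 57.7 and 39.9 in Nat1-/- and 4398 and 1886 in WT (log2 fold change -5.69 ± 0.71). Sulf1, a sulfatase that edits heparan sulfate, had 145, 137 and 85.4 in Nat1-/- and 2241 and 2075 in WT (log2 fold change -4.17 ± 0.27). The Nat1+/- lines were between the groups for these 3 genes, with Klhl13 at 2695, 4067 and 2311 in A7, B4 and C1. Peg3, a paternally expressed zinc-finger protein, had 44.3, 34.6 and 22.8 in Nat1-/- and 1401 and 2069 in WT (log2 fold change -5.66 ± 0.29). Col1a1, the other chain of type I collagen, had 22.7, 45.3 and 38.7 in Nat1-/- and 1911 and 5922 in WT (log2 fold change -6.58 ± 0.84). Nes, the intermediate filament protein nestin, had 190.0, 206 and 287 in Nat1-/- and 4615 and 2904 in WT (log2 fold change -4.02 ± 0.40). Peg3 differed from the others here, with 1980.0, 2698 and 1879.8 in the Nat1+/- lines, a mean above that of WT. Across these 6 genes adjusted p lay between 8.7e-06 and 4.6e-04. Over all 4567 called genes the Nat1+/- mean lay between those of Nat1-/- and WT for 3215 (70.4%), against 41.8% of all genes tested.

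Guanylate-binding proteins are GTPases that interferon induces and that act in defence inside the cell. The 3 that belong to the widest decreases led to the whole family being looked at, after the values were seen, so its count has no test: the table holds 10 Gbp genes, 6 were tested and all 6 were lower. Among all tested genes 18.3% were lower, and 33.9% of those with a mean of 10 to 50, where Gbp4, Gbp7 and Gbp9 lie. Gbp2b, Gbp3, Gbp4, Gbp7 and Gbp9 had Nat1-/- means under 10. They passed the minimum only through the other cultures, which favours a lower call. Gbp2b had 2.16, 13.3 and 2.28 in Nat1-/- and 1425 and 571 in WT (log2 fold change -7.42 ± 1.12, adjusted p = 0.001). Gbp2 had 11.9, 17.8 and 5.7 in Nat1-/- and 2203 and 1101 in WT (log2 fold change -7.05 ± 1.00, adjusted p = 7.5e-04). Gbp3 had 1.08, 2.66 and 0 in Nat1-/- and 454 and 245 in WT (log2 fold change -7.41 ± 1.00, adjusted p = 6.0e-04). WTex1 was above WTex2 in each, and B4 reached 932 for Gbp2 where A7 and C1 had 45.5 and 121. Gbp4 had 0 in all 3 Nat1-/- lines and 69.1 and 31 in WT, so it was at least 14.65-fold lower against a limit of 3 reads per library. Gbp9 lost its call without WTex1. Gbp family members are similar in sequence, so counting may have split or dropped shared reads. The promoters of these 3 genes are shown because interferon-responsive genes are known for an element made of GAAA, 2 bases of any kind and GAAA again, and each holds it. The lines give the bases upstream of each start that contain the match, from RefSeq on GRCm38.p6, plus strand, with the match in capitals (here on the minus strand, so that it reads TTTC, 2 bases and TTTC, and in Gbp3 as a pair of overlapping matches). They lie at chr3:142620553-142620662 for Gbp2, chr3:142594660-142594769 for Gbp2b and chr3:142559934-142560043 for Gbp3, for which 1 of 2 listed windows holds it.
Gbp2: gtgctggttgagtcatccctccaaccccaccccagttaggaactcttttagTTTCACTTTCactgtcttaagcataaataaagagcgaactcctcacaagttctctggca
Gbp2b: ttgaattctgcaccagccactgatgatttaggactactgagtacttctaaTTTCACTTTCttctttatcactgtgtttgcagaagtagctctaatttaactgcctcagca
Gbp3: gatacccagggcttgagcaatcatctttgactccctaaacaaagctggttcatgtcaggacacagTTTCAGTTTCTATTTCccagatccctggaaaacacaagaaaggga
Searched on both strands in windows of 300 bases, from 250 before to 50 after the start, the element occurred in 1131 of 32851 windows (3.44%). Of tested genes with a window 341 of 10000 held it (3.41%), 49 of 1689 of those called higher (2.90%) and 80 of 1774 called lower (4.51%). All 4 tested Gbp genes with a window held it. A match is a description of these letters and not a shown binding site.

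Pluripotency genes were mostly higher in the lines. Mouse embryonic stem cells rest on a core network around Pou5f1 and Sox2 and on naive factors that LIF and its effector STAT3 sustain. Of 19 naive pluripotency genes, all tested, 11 were higher and 2 lower, of which 8 higher and 2 lower held (median log2 fold change 1.04). Those are 57.9% and 10.5%, which compares with 16.5% higher and 18.3% lower among all genes. Without B2 the higher members numbered 10, and they were also fewer without WTex1, which leaves 1 WT culture in the fit. The list's median log2 fold change was 0.65 without WTex1 and 1.21 without WTex2. Tfcp2l1, a naive factor downstream of STAT3, had 9159, 7922 and 10136 in Nat1-/- and 1267 and 2042 in WT (log2 fold change 2.49 ± 0.28, adjusted p = 2.2e-04). Dppa3, also called Stella, a protector of DNA methylation in early development, had 41, 62.2 and 46.7 in Nat1-/- and 1748 and 1978 in WT (log2 fold change -5.21 ± 0.43, adjusted p = 5.5e-05). Tfcp2l1, Tbx3 and Klf4 were several-fold above WT in each line, and Dppa3 was far below it in each. The median deviation of the 19 genes was 0.48, 0.62 and 0.45 in B12, B2 and C3, against -0.56 and -0.30 in WTex1 and WTex2. Nanog, Esrrb, Klf5, Prdm14, Nr5a2, Tcl1, Zfp57 and Stat3 were the other members called higher, and Klf2 the other called lower.

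Of 15 core pluripotency genes, all tested, 7 were higher (46.7%) and 0 lower, of which 5 higher held (median log2 fold change 0.46). Over all genes tested 16.5% were higher and 18.3% lower. The core list's counts of higher and lower members became 6 and 1 without B12, and 5 and 0 without B2. Fewer were higher without either WT culture as well, and the median was 0.37 without WTex1 and 0.53 without WTex2. Dppa5a, an RNA-binding protein of pluripotent cells, had 47720.1, 42911 and 39162 in Nat1-/- and 10084 and 10449 in WT (log2 fold change 2.07 ± 0.21). Tdgf1, Cripto, the Nodal co-receptor, had 20376, 28457 and 31263 in Nat1-/- and 10677 and 8824 in WT (log2 fold change 1.44 ± 0.21). Sox2, a core transcription factor, had 10186, 11776 and 14639.5 in Nat1-/- and 5338 and 6926 in WT (log2 fold change 0.99 ± 0.18). Pou5f1 did not pass the test. Fgf4, the growth factor with which stem cells activate ERK, had 2412, 2249.6 and 2339 in Nat1-/- and 809 and 1109 in WT (log2 fold change 1.30 ± 0.18). All 14 genes of the LIF receptor and STAT3 list were tested (median log2 fold change 0.77). Of these 8 were higher (57.1%) and 0 lower, of which 5 higher held. Higher and lower calls numbered 5 and 0 without WTex1, 8 and 1 without B4, 7 and 1 without C3, 7 and 1 with chromosome medians centred, and 7 and 1 with equal library sums. Lifr, the LIF receptor, had 2228, 2738 and 3623 in Nat1-/- and 1125 and 1333 in WT (log2 fold change 1.20 ± 0.20). Socs3, the feedback inhibitor that STAT3 induces, had 2403, 1819.8 and 2786 in Nat1-/- and 1058 and 1079 in WT (log2 fold change 1.11 ± 0.21). Pim3, a kinase induced by STAT3, had 5589.6, 5422 and 5073 in Nat1-/- and 2062 and 2078 in WT (log2 fold change 1.37 ± 0.17). Sbno2, a STAT3-induced nuclear protein, had 1408, 1647 and 1984 in Nat1-/- and 776 and 851 in WT (log2 fold change 1.03 ± 0.18). Receptor, feedback inhibitor and targets were thus higher, with adjusted p between 1.5e-04 and 0.0031 for the 8 genes.

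**Figure D4:**
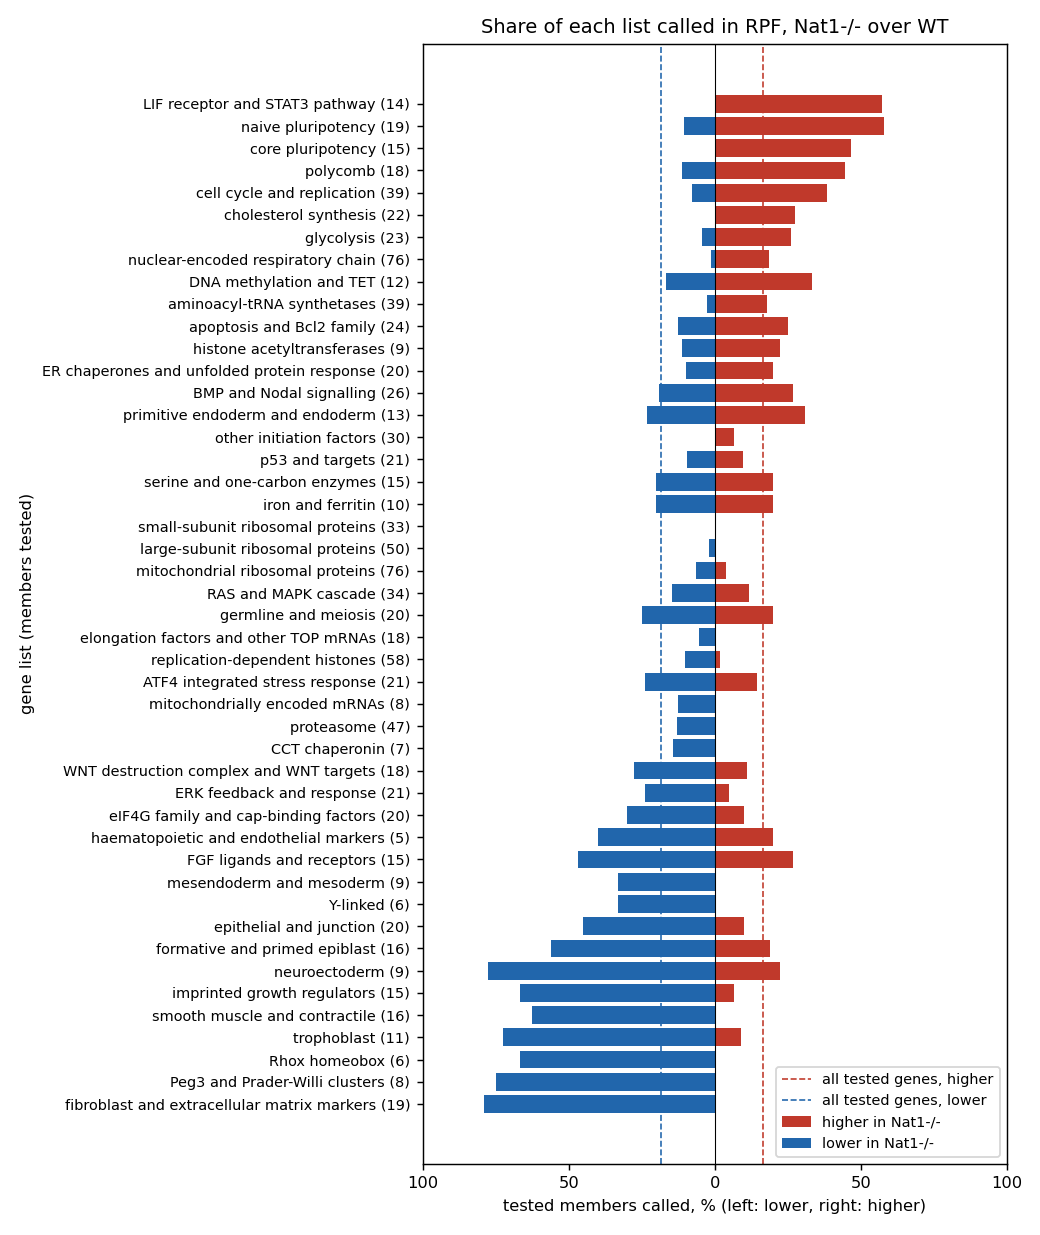
Percent of tested members called higher (right) and lower (left) in Nat1-/- than in WT for each gene list, with the background over all genes at 16.5% and 18.3%. Naive and core pluripotency lie to the right, and fibroblast, contractile, neuroectoderm and imprinted lists to the left.

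Genes of the next developmental step, the formative and primed epiblast, and of the neuroectoderm were mostly lower. Over all genes tested 16.5% were higher and 18.3% lower. Of 16 epiblast genes, all tested, 3 were higher (18.8%) and 9 lower (56.2%), of which 8 lower held (median log2 fold change -1.88). These 2 counts were 0 and 9 without WTex1 or B2, and 0 and 8 without WTex2. Cdh2, N-cadherin, had 13, 16 and 9.11 in Nat1-/- and 749 and 743 in WT (log2 fold change -5.80 ± 0.32). Sox4, a transcription factor, had 95, 58.6 and 49 in Nat1-/- and 736 and 716 in WT (log2 fold change -3.46 ± 0.26). Sall2, a zinc-finger factor of the Sall family, had 35.6, 21.3 and 33 in Nat1-/- and 301 and 227 in WT (log2 fold change -3.11 ± 0.40). Fgf5, Pou3f1, Zic2, Zic5, Dnmt3a and Dnmt3b were the other members called lower, while Etv4, Foxd3 and Nodal were higher. Of 14 neuroectoderm genes listed, 9 were tested (median log2 fold change -3.29). Of these 2 were higher (22.2%) and 7 lower (77.8%), of which 1 higher and 7 lower held. Other settings gave 1 and 7 without WTex1, higher members first. Sox11, a factor of neural progenitors, had 15.1, 28.4 and 21.6 in Nat1-/- and 713 and 549.9 in WT (log2 fold change -4.83 ± 0.31). Gap43, a growth cone protein, had 132, 82.6 and 74 in Nat1-/- and 1708 and 1232 in WT (log2 fold change -3.95 ± 0.33). Neurod1, a neurogenic factor, had 5.4, 15.1 and 9.11 in Nat1-/- and 96.3 and 99.7 in WT (log2 fold change -3.29 ± 0.38). Its Nat1-/- mean was under 10, so it passed the minimum only through the other cultures, which favours a lower call. Nestin, given above, fell with them, and so did Pax6, Map2 and Tubb3, whereas Sox1 and Ncam1 were higher. The genes given here from Cdh2 to Neurod1 had adjusted p between 1.0e-05 and 4.6e-04.

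Among lists of the other early lineages, trophoblast genes were mostly lower. Of 13 endoderm genes tested, of 18 listed, 4 were higher and 3 lower, of which 2 lower held (median log2 fold change -0.22). That is 30.8% and 23.1%, against 16.5% and 18.3% of all genes. In the alternative fits the counts were 0 and 3 without WTex1 or B2, 2 and 3 without A7 or C3, and 1 and 3 with chromosome medians centred. Lamb1, a laminin chain, had 1181, 704 and 734 in Nat1-/- and 3852 and 5322 in WT (log2 fold change -2.42 ± 0.26). Dab2, an endocytic adaptor of extraembryonic endoderm, had 15.1, 7.1 and 3.42 in Nat1-/- and 157 and 167 in WT (log2 fold change -4.29 ± 0.59). Lamc1, the laminin chain that pairs with Lamb1, had 15512, 15982 and 15095 in Nat1-/- and 8818 and 12415 in WT (log2 fold change 0.57 ± 0.17, call lost without WTex1 or B2, and adjusted p = 0.25 with chromosome medians centred). Laminin chains thus went in different directions, and Sparc, a matrix glycoprotein, fell by 0.86 on the log2 scale (call lost without WTex2). Of 11 trophoblast genes tested, of 14 listed, 1 was higher and 8 lower, of which 1 higher and 2 lower held (median log2 fold change -2.14). Shares were 9.09% and 72.7%, against 16.5% and 18.3% of all genes. Calls in each direction came to 1 and 4 without WTex1 or WTex2. Krt18, a simple-epithelium keratin, had 545, 501 and 343 in Nat1-/- and 4679 and 6227 in WT (log2 fold change -3.57 ± 0.50). Krt7, another keratin, had 32.4, 22.2 and 25.1 in Nat1-/- and 164 and 332 in WT (log2 fold change -3.11 ± 0.59). Tead4, the TEA-domain factor that starts the trophoblast programme, had 838, 728 and 763 in Nat1-/- and 231 and 297 in WT (log2 fold change 1.56 ± 0.26). Tead4 was the member called higher, and Tfap2c fell by 1.70 on the log2 scale (call lost without WTex2). Of 9 mesendoderm and mesoderm genes tested, of 15 listed, 0 were higher and 3 lower, of which 2 lower held (median log2 fold change -1.23). That is 33.3% lower, against 18.3% of all genes, while 16.5% of all genes were higher. The held members T and Wnt3, given next, and Dab2, given above, had Nat1-/- means under 10. They passed the minimum only through the other cultures, which favours a lower call. T, Brachyury, the primitive streak factor, had 1.08, 9.77 and 2.28 in Nat1-/- and 123 and 108 in WT (log2 fold change -4.80 ± 0.78). Wnt3, the WNT ligand that induces the streak, had 0, 0.888 and 5.7 in Nat1-/- and 96.3 and 137 in WT (log2 fold change -5.63 ± 0.95). Pdgfrb was the remaining member called lower (log2 fold change -1.23 ± 0.40, call lost without every culture left out except C3). For the 7 held genes of this paragraph adjusted p lay between 1.9e-04 and 0.0034.

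Imprinted genes, which are expressed from the maternal or paternal allele alone, were lower in most cases. Over all genes tested 16.5% were higher and 18.3% lower. Of 10 genes of the Peg3 and Prader-Willi clusters listed, 8 were tested (median log2 fold change -2.77). Of these 0 were higher and 6 lower (75.0%), of which 4 lower held. Fewer were lower without either WT culture, and the median was -2.47 without WTex1 and -3.14 without WTex2. Snrpn, a splicing protein of the Prader-Willi region, had 65.9, 28.4 and 14.8 in Nat1-/- and 2799 and 1595 in WT (log2 fold change -6.07 ± 0.51). Magel2, a ubiquitin ligase regulator of that region, had 1.08, 4.44 and 1.14 in Nat1-/- and 124 and 123 in WT (log2 fold change -5.42 ± 0.58). With a Nat1-/- mean under 10, Magel2 passed the minimum only through the other cultures, which favours a lower call. Ndn, necdin, also of that region, had 153, 138 and 156 in Nat1-/- and 619 and 592 in WT (log2 fold change -2.02 ± 0.22). All 3 are paternally expressed, like Peg3. Of 21 imprinted growth regulators listed, 15 were tested (median log2 fold change -1.19). Of these 1 was higher (6.67%) and 10 lower (66.7%), of which 1 higher and 4 lower held. As higher and lower, the counts stood at 1 and 4 without WTex1, 1 and 5 without WTex2, and 1 and 6 without B2. Igf2, insulin-like growth factor 2, a paternally expressed growth promoter, had 8.64, 10.7 and 18.2 in Nat1-/- and 759 and 1911 in WT (log2 fold change -6.54 ± 0.54). Slc38a4, an amino acid transporter, had 1574, 862 and 470.5 in Nat1-/- and 5862 and 6655 in WT (log2 fold change -2.86 ± 0.39). Mest, a paternally expressed hydrolase-like protein, had 1068, 684 and 428 in Nat1-/- and 2479.7 and 2146 in WT (log2 fold change -1.76 ± 0.31). Slc22a18, a maternally expressed transporter, had 263, 299 and 409 in Nat1-/- and 62.9 and 75.5 in WT (log2 fold change 2.19 ± 0.28). Slc22a18 was the member called higher. Dlk1, Cdkn1c, Nnat, Plagl1, Impact, Peg10 and Sgce were the other members called lower. The named genes had adjusted p between 5.5e-05 and 0.0022. Allele-specific expression was not measured here.

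Germline genes had calls in both directions at shares near those of all genes, with 20% higher against 16.5% and 25% lower against 18.3%. Of 20 germline and meiosis genes, all tested, 4 were higher and 5 lower, of which 2 higher and 3 lower held (median log2 fold change -0.02). The calls moved to 2 and 3 without WTex1, and 3 and 3 without WTex2. Hormad1, a meiotic chromosome axis protein, had 830.3, 929 and 1013 in Nat1-/- and 138 and 136 in WT (log2 fold change 2.75 ± 0.24). Tdrd12, a tudor-domain protein of the piRNA pathway, had 167, 179 and 339 in Nat1-/- and 1408 and 1718 in WT (log2 fold change -2.84 ± 0.33). Piwil4, a PIWI protein, had 4.32, 2.66 and 2.28 in Nat1-/- and 80 and 103 in WT (log2 fold change -4.52 ± 0.62). Tdrd1, another tudor protein of that pathway, had 22.7, 10.7 and 12.5 in Nat1-/- and 112 and 116 in WT (log2 fold change -2.89 ± 0.42). Piwil2, Dazl and Taf7l were called higher and Sycp1 and Tex101 lower. The reproductive homeobox genes of the X chromosome were mostly lower: of 10 Rhox genes listed, 6 were tested (median log2 fold change -4.73). Of these 0 were higher and 4 lower (66.7%), of which 4 lower held. Rhox5 had 31.3, 21.3 and 50.1 in Nat1-/- and 1149 and 1162 in WT (log2 fold change -5.12 ± 0.70). Rhox6 had 14, 1.78 and 1.14 in Nat1-/- and 160.0 and 238 in WT (log2 fold change -5.46 ± 0.77). Rhox9 had 6.48, 0.888 and 10.3 in Nat1-/- and 115 and 142 in WT (log2 fold change -4.57 ± 0.70). Rhox1 had 1.08, 1.78 and 2.28 in Nat1-/- and 76.9 and 78.4 in WT (log2 fold change -4.88 ± 0.88). Rhox1, Rhox6 and Rhox9, like Piwil4, had Nat1-/- means under 10. They passed the minimum only through the other cultures, which favours a lower call. Rhox genes are a cluster of similar copies, so their counts are uncertain. The 8 named genes had adjusted p between 6.9e-05 and 0.0025.

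Among DNA methylation genes the de novo methyltransferases Dnmt3a and Dnmt3b fell and the dioxygenase Tet2 rose. Of 12 such genes, all tested, 4 were higher and 2 lower, of which 1 higher and 2 lower held (median log2 fold change 0.21). That is 33.3% and 16.7%, against 16.5% and 18.3% of all genes. Leaving out or rescaling changed these counts, given as higher and lower, to 1 and 2 without WTex1. Dnmt3a, a de novo DNA methyltransferase, had 458, 310.0 and 368 in Nat1-/- and 2884 and 2217 in WT (log2 fold change -2.75 ± 0.20, adjusted p = 3.1e-05). Dnmt3b, its partner enzyme, had 2284, 2469 and 1362 in Nat1-/- and 7029.6 and 5884 in WT (log2 fold change -1.70 ± 0.26, adjusted p = 0.0012). Tet2, which oxidises methylcytosine, had 7247, 8120.1 and 7507 in Nat1-/- and 1291 and 2335 in WT (log2 fold change 2.13 ± 0.28, adjusted p = 5.2e-04). Tet1, which does the same, had 5870.3, 7037 and 8396 in Nat1-/- and 1999 and 3520.3 in WT (log2 fold change 1.41 ± 0.28, adjusted p = 0.0042, call lost without WTex1). The cofactor Dnmt3l and the maintenance factor Uhrf1 were the other members called higher, and DNA methylation itself was not measured here. Of 18 polycomb genes, all tested, 8 were higher and 2 lower, of which 1 higher held (median log2 fold change 0.34). Shares were 44.4% and 11.1%, against 16.5% and 18.3% of all genes. The counts of higher and lower members became 2 and 0 without WTex1, WTex2 or B2, 3 and 2 without A7, 4 and 2 without C1, 3 and 1 without B12, 6 and 1 without C3, 4 and 1 with chromosome medians centred, and 2 and 2 with equal library sums. Mtf2, a PRC2 accessory protein, had 8329.8, 9484 and 8453 in Nat1-/- and 3939 and 4445 in WT (log2 fold change 1.06 ± 0.14). Pcgf1, a subunit of a variant PRC1, had 346, 329 and 278 in Nat1-/- and 189.5 and 149 in WT (log2 fold change 0.91 ± 0.22, call lost without WTex2). Pcgf2, a subunit of canonical PRC1, had 831, 526 and 460.2 in Nat1-/- and 968 and 1073 in WT (log2 fold change -0.80 ± 0.24, call lost without WTex1, WTex2, B2 or C3, and adjusted p = 0.2 with chromosome medians centred). Phc1, another canonical PRC1 subunit, had 4626, 5681 and 5894 in Nat1-/- and 7382 and 8332 in WT (log2 fold change -0.55 ± 0.17, call lost without WTex1, WTex2, B12 or B2). The balance of the polycomb list depended on the scaling. Of 9 histone acetyltransferases, all tested, 2 were higher and 1 lower, of which 1 higher held (median log2 fold change 0.24). That is 22.2% and 11.1%, against 16.5% and 18.3% of all genes. Higher and lower calls numbered 1 and 1 without WTex1, B2 or C3, 2 and 0 without WTex2, and 1 and 1 with equal library sums. Kat6b, a MYST-family acetyltransferase, had 4496, 4916 and 5370.0 in Nat1-/- and 1699 and 2644 in WT (log2 fold change 1.21 ± 0.20). Crebbp, the coactivator CBP, had 1167, 1121 and 1078 in Nat1-/- and 1521 and 1865 in WT (log2 fold change -0.59 ± 0.14, call lost without WTex2). Kat2b, PCAF, had 683, 794 and 842 in Nat1-/- and 501 and 521 in WT (log2 fold change 0.59 ± 0.17, call lost without WTex1, WTex2, B2 or C3, and adjusted p = 0.098 with chromosome medians centred). Across the genes of the last 2 lists adjusted p lay between 5.3e-04 and 0.029.

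**Figure D5:**
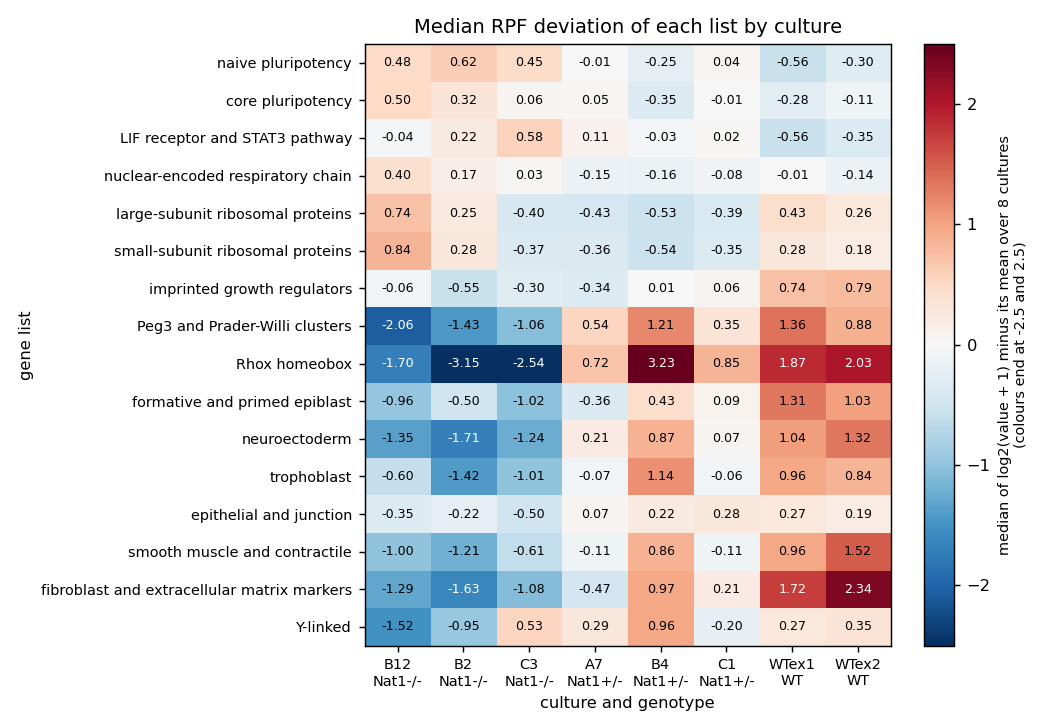
Median deviation on the log2 scale of each gene list's tested members from their mean over 8 cultures, 1 column per culture, Nat1-/- left of Nat1+/- and WT. Ribosomal protein lists differ among the Nat1-/- lines themselves, with medians of 0.74 and 0.84 in B12 and -0.40 and -0.37 in C3.

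FGF signals pass through RAS, the MAP3 kinases and MEK to ERK, the pathway that takes mouse embryonic stem cells out of the naive state. Sos1, the exchange factor that activates RAS, and Map3k3, a MAP3 kinase, were both lower in footprints. Sos1 had 322, 335 and 387 in Nat1-/- and 629 and 784 in WT (log2 fold change -1.02 ± 0.17, adjusted p = 0.0016). Map3k3 had 219, 207 and 238 in Nat1-/- and 581 and 555 in WT (log2 fold change -1.36 ± 0.18, adjusted p = 6.0e-04). Every line lay below both WT cultures, while total RNA did not pass the test for either: the RNA log2 fold change was 0.29 for Sos1 (adjusted p = 0.18) and -0.24 for Map3k3 (adjusted p = 0.28). Map3k3 lies on chromosome 11, and with chromosome medians centred its footprint fold change was -1.02 (adjusted p = 0.001). Over the RAS and MAPK list of 34 genes, all tested, 4 were higher and 5 lower, of which 2 lower held (median log2 fold change -0.01). That is 11.8% and 14.7%, against 16.5% and 18.3% of all genes. These 2 counts were 1 and 2 without WTex1, 0 and 2 without WTex2, 2 and 4 without C1, 0 and 3 without B2, 2 and 5 without C3, 2 and 7 with chromosome medians centred, and 0 and 7 with equal library sums. Map3k5, a stress-activated MAP3 kinase, had 131, 106 and 93.4 in Nat1-/- and 233 and 239 in WT (log2 fold change -1.11 ± 0.28, call lost without WTex1 or WTex2). Map2k1, the ERK kinase MEK, had 4312, 4337 and 4522 in Nat1-/- and 3378 and 2824 in WT (log2 fold change 0.51 ± 0.14, call lost without WTex2 or B2, and adjusted p = 0.21 with chromosome medians centred).

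Ligands and receptors of the FGF family changed in both directions, member by member. Of 15 FGF genes, all tested, 4 were higher and 7 lower, of which 3 higher and 5 lower held (median log2 fold change -0.78). Shares were 26.7% and 46.7%, against 16.5% and 18.3% of all genes. Fgfr2, an FGF receptor, had 7.56, 7.99 and 2.28 in Nat1-/- and 246 and 205 in WT (log2 fold change -5.16 ± 0.44, adjusted p = 6.1e-05). Fgfr3, another FGF receptor, had 244, 298 and 290.5 in Nat1-/- and 18.6 and 26.1 in WT (log2 fold change 3.59 ± 0.31, adjusted p = 6.8e-05). Fgf10, an FGF ligand, had 97.2, 110.1 and 185 in Nat1-/- and 7.77 and 8.71 in WT (log2 fold change 3.78 ± 0.40, adjusted p = 1.7e-04). Fgfbp1, a carrier that releases FGFs from matrix, had 25.9, 24.9 and 2.28 in Nat1-/- and 1408 and 876 in WT (log2 fold change -6.40 ± 0.83, adjusted p = 5.0e-04). Receptor Fgfr1 and ligands Fgf5, Fgf8, Fgf17 and Fgf13 were also lower, and Fgf3 and Fgf4 higher. Of the genes that ERK induces, among them its phosphatases, 4.76% were higher and 23.8% lower, against 16.5% and 18.3% of all genes. Of 21 ERK feedback and response genes tested, of 22 listed, 1 was higher and 5 lower, of which 4 lower held (median log2 fold change -0.37). Other settings gave 0 and 4 without WTex1, WTex2 or B2, 0 and 6 without A7 or B12, 2 and 5 without B4, and 2 and 4 without C3, higher members first. Dusp4, a MAP kinase phosphatase, had 32.4, 71 and 79.7 in Nat1-/- and 896 and 1139.5 in WT (log2 fold change -4.13 ± 0.34). Dusp5, an ERK phosphatase, had 49.7, 45.3 and 37.6 in Nat1-/- and 269 and 279 in WT (log2 fold change -2.61 ± 0.26). Egr1, an immediate early factor, had 52.9, 66.6 and 39.9 in Nat1-/- and 534 and 529.6 in WT (log2 fold change -3.33 ± 0.28). Jun, an AP-1 factor, had 167, 237 and 209.6 in Nat1-/- and 501 and 567 in WT (log2 fold change -1.39 ± 0.24). These 4 genes had adjusted p between 5.5e-05 and 0.0022, and the member called higher was Etv4.

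In the WNT list, 18 of 20 genes were tested, and 2 were higher and 5 lower, of which 2 lower held (median log2 fold change -0.38). Shares were 11.1% higher and 27.8% lower, against 16.5% and 18.3% of all genes. In the alternative fits the counts were 0 and 4 without WTex1, 1 and 2 without WTex2, 1 and 5 without A7, B4, C1 or C3, 0 and 5 without B2, 0 and 4 with chromosome medians centred, 0 and 5 with equal library sums, and 1 and 5 by edgeR. Sp5, a direct WNT target, had 3.24, 3.55 and 7.97 in Nat1-/- and 182 and 114 in WT (log2 fold change -4.70 ± 0.50). Nkd2, a feedback inhibitor, had 25.9, 8.88 and 5.7 in Nat1-/- and 99.4 and 74.6 in WT (log2 fold change -2.85 ± 0.52). Axin2, a feedback inhibitor in the destruction complex, had 118, 114 and 100.2 in Nat1-/- and 215 and 246 in WT (log2 fold change -1.05 ± 0.22, call lost without WTex2, and adjusted p = 0.052 with chromosome medians centred). Apc, a scaffold of that complex, had 745, 594 and 605 in Nat1-/- and 971 and 1263 in WT (log2 fold change -0.78 ± 0.17, call lost without WTex2). Targets and a scaffold were thus among the lower members, and Ctnnb1 (beta-catenin) and Csnk1a1 were higher. Of 26 BMP and Nodal genes, all tested, 7 were higher and 5 lower, of which 4 higher and 4 lower held (median log2 fold change 0.00). That is 26.9% and 19.2%, against 16.5% and 18.3% of all genes. Calls in each direction came to 4 and 4 without WTex1, and 6 and 8 without C3. Bmpr1b, a BMP receptor, had 0, 0.888 and 2.28 in Nat1-/- and 90.1 and 110.4 in WT (log2 fold change -5.78 ± 0.56). Smad7, an inhibitory SMAD, had 5477, 4377 and 3105 in Nat1-/- and 944 and 975 in WT (log2 fold change 2.13 ± 0.33). Skil, a repressor of SMAD targets, had 1339.9, 1494 and 1677 in Nat1-/- and 3382 and 3139 in WT (log2 fold change -1.12 ± 0.17). Tdgf1, given above, Bmp4, Acvr1b, Smad2, Nodal and Lefty2 were the others called higher, and Smad3, Id2 and Lefty1 the others called lower. The 7 named genes had adjusted p between 1.1e-04 and 0.0061.

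Stress responses were mixed. Of 21 ATF4 response genes tested, of 22 listed, 3 were higher and 5 lower, of which 2 higher held (median log2 fold change -0.28). Shares were 14.3% and 23.8%, against 16.5% and 18.3% of all genes. As higher and lower, the counts stood at 2 and 0 without WTex1, 2 and 2 without WTex2, and 2 and 1 without B2. Slc7a1, a cationic amino acid transporter, had 2491, 2413 and 3056 in Nat1-/- and 1176 and 1242 in WT (log2 fold change 1.13 ± 0.19). Eif2ak2, the double-stranded RNA kinase PKR, had 1090.5, 1157 and 1373 in Nat1-/- and 641 and 647 in WT (log2 fold change 0.90 ± 0.16). Atf3, a stress-induced factor, had 41, 23.1 and 30.8 in Nat1-/- and 127 and 92.9 in WT (log2 fold change -1.78 ± 0.35, call lost without WTex1). Chac1, a glutathione-degrading enzyme, had 159.8, 147 and 204 in Nat1-/- and 436 and 314 in WT (log2 fold change -1.13 ± 0.28, call lost without WTex1 or B2). Of 20 endoplasmic reticulum genes, all tested, 4 were higher and 2 lower, none of them held (median log2 fold change 0.07). The calls moved to 0 and 0 without WTex1, 1 and 0 without WTex2 or B2, 2 and 2 without A7, 2 and 0 without C1, 6 and 0 without B12, 0 and 0 with chromosome medians centred, and 1 and 2 with equal library sums. Hspa5, the chaperone BiP, had 27521, 25951 and 30808 in Nat1-/- and 15269.6 and 19813 in WT (log2 fold change 0.69 ± 0.17, call lost without WTex1, and adjusted p = 0.056 with chromosome medians centred). P4hb, protein disulfide isomerase, had 17186, 20718 and 21133 in Nat1-/- and 28727 and 28959 in WT (log2 fold change -0.56 ± 0.18, call lost without WTex1, WTex2, C1, B12 or B2, and adjusted p = 0.28 with chromosome medians centred). No member of that list had a held call, and Creld2 and Sdf2l1 (log2 fold changes 0.45 ± 0.13 and 0.49 ± 0.15) also lost theirs with chromosome medians centred (adjusted p = 0.13 and 0.15). Of 21 genes of p53 and its targets, all tested, 2 were higher and 2 lower, of which 1 lower held (median log2 fold change 0.16). Each share was 9.52%, against 16.5% higher and 18.3% lower among all genes. Leaving out or rescaling changed these counts, given as higher and lower, to 0 and 2 without WTex1 or B2, 0 and 1 without WTex2, 4 and 4 without B12, 4 and 2 without C3, 2 and 4 with chromosome medians centred, and 2 and 5 with equal library sums. Ccng1, a p53 target, cyclin G, had 975, 687 and 811 in Nat1-/- and 1471 and 1508 in WT (log2 fold change -0.87 ± 0.18). Mdm4, an inhibitor of p53, had 1322, 1568 and 1634 in Nat1-/- and 889 and 845 in WT (log2 fold change 0.79 ± 0.20, call lost without WTex1, WTex2 or B2, and adjusted p = 0.056 with chromosome medians centred). Fas had 0, 0 and 1.14 in Nat1-/- and 8.55 and 17.4 in WT, at or near the limit of detection in the lines, and Gdf15 had 84.2, 87 and 93.4 in Nat1-/- and 37.3 and 44.5 in WT (calls lost without WTex2 and without WTex1, WTex2 or B2). Of 24 apoptosis genes tested, of 25 listed, 6 were higher and 3 lower, of which 2 higher and 1 lower held (median log2 fold change 0.20). That is 25.0% and 12.5%, against 16.5% and 18.3% of all genes. The counts of higher and lower members became 2 and 1 without WTex1, 2 and 2 without WTex2 or B2, 5 and 5 without B12, and 3 and 3 with equal library sums. Xiap, a caspase inhibitor, had 683, 699.8 and 522 in Nat1-/- and 301 and 297 in WT (log2 fold change 1.07 ± 0.19). Mcl1, an anti-apoptotic Bcl2 relative, had 9083, 8807 and 8147 in Nat1-/- and 5039 and 5206 in WT (log2 fold change 0.76 ± 0.15). Bcl2l11 (BIM), a pro-apoptotic relative, fell by 0.92 on the log2 scale (call lost without WTex1). Across the genes given with values here adjusted p lay between 0.0019 and 0.035.

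Metabolic lists held a few wide changes. Of 15 serine and one-carbon genes, all tested, 3 were higher and 3 lower, of which 1 higher and 2 lower held (median log2 fold change 0.00). Higher and lower calls numbered 1 and 2 without WTex1. Phgdh, the first enzyme of serine synthesis, had 419, 287 and 705 in Nat1-/- and 2344 and 2598 in WT (log2 fold change -2.49 ± 0.30). Gldc, glycine decarboxylase, had 2112, 3632 and 3257 in Nat1-/- and 5979 and 7469.6 in WT (log2 fold change -1.19 ± 0.22). Shmt2, mitochondrial serine hydroxymethyltransferase, had 8486, 9938 and 10689 in Nat1-/- and 5028 and 5307 in WT (log2 fold change 0.90 ± 0.16). Mthfd1, a folate enzyme, had 15221, 17120.3 and 15355 in Nat1-/- and 8435 and 10270.5 in WT (log2 fold change 0.77 ± 0.18, call lost without WTex1). The serine-making enzymes Phgdh and Psat1 were lower while Shmt2 and Mthfd1 were higher. Of 22 cholesterol synthesis genes, all tested, 6 were higher and 0 lower, of which 1 higher held (median log2 fold change 0.23). That is 27.3% higher, against 16.5% of all genes, and 0% lower, against 18.3%. These 2 counts were 1 and 0 without WTex1, WTex2 or B2, 5 and 1 with chromosome medians centred, and 2 and 2 with equal library sums. Pmvk, phosphomevalonate kinase, had 2973, 3040.0 and 2875 in Nat1-/- and 1688 and 1702 in WT (log2 fold change 0.81 ± 0.12). Cyp51, lanosterol demethylase, had 3037, 4677 and 4568 in Nat1-/- and 2387 and 2563 in WT (log2 fold change 0.70 ± 0.20, call lost without WTex1, WTex2 or B2, and adjusted p = 0.07 with chromosome medians centred). Fdft1, squalene synthase, had 3239, 4029 and 3746 in Nat1-/- and 2601 and 2420.5 in WT (log2 fold change 0.54 ± 0.17, call lost without WTex1, WTex2, B2 or C3, and adjusted p = 0.078 with chromosome medians centred). Ebp, a sterol isomerase, had 1161, 1274 and 987 in Nat1-/- and 677 and 757 in WT (log2 fold change 0.66 ± 0.21, call lost without WTex1, WTex2, B12 or B2). Of 23 glycolysis genes, all tested, 6 were higher and 1 lower, of which 1 higher held (median log2 fold change 0.25). Shares were 26.1% and 4.35%, against 16.5% and 18.3% of all genes. Other settings gave 1 and 0 without WTex1, 2 and 0 without WTex2 or B2, 4 and 0 without C3, and 5 and 0 with chromosome medians centred, higher members first. Hk1, a hexokinase, had 2726, 3549.8 and 5672 in Nat1-/- and 1094 and 1413 in WT (log2 fold change 1.61 ± 0.26). Hk2, another hexokinase, had 18112, 27509 and 33166 in Nat1-/- and 9211 and 13212 in WT (log2 fold change 1.21 ± 0.28, call lost without WTex1). Aldoa and Pfkp had log2 fold changes of 0.67 ± 0.18 and 1.16 ± 0.33, and both lost the call without WTex1, WTex2 or B2. Of 10 iron genes tested, of 11 listed, 2 were higher and 2 lower, of which 1 lower held (median log2 fold change 0.12). In the alternative fits the counts were 0 and 1 without WTex1, 0 and 2 without WTex2 or B2, 1 and 2 without C1 or C3, 4 and 2 without B12, 0 and 2 with chromosome medians centred, and 1 and 2 with equal library sums. Hmox1, haem oxygenase 1, had 990.1, 836 and 1104 in Nat1-/- and 3646 and 3655 in WT (log2 fold change -1.91 ± 0.16). Hmox1 was the member with a held call. Slc40a1, the iron exporter, and Ireb2 had log2 fold changes of -2.35 ± 0.54 and 0.49 ± 0.13. Their calls were lost without WTex1 for Slc40a1 and without WTex1, WTex2 or B2 for Ireb2. Ireb2 also lost its call with chromosome medians centred (adjusted p = 0.24). Phgdh, Gldc, Shmt2, Pmvk, Hk1 and Hmox1 had adjusted p between 5.5e-05 and 0.0031.

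Cytosolic ribosomal proteins, whose many pseudogene copies make counts uncertain, had almost no calls and varied among the lines. Of 50 large-subunit genes, all tested, 0 were higher and 1 lower (median log2 fold change -0.07), and of 33 small-subunit genes, all tested, 0 were called (median 0.03). Their median deviations were 0.74, 0.25 and -0.40 in B12, B2 and C3, against 0.43 and 0.26 in WTex1 and WTex2 for the large subunit, and 0.84, 0.28 and -0.37 in B12, B2 and C3, against 0.28 and 0.18 in WTex1 and WTex2 for the small subunit. B12 lay above every other culture, and C3 lay near the Nat1+/- lines, which had -0.43, -0.53 and -0.39 for the large subunit. Calls in each direction came to 0 and 0 without WTex1, WTex2 or B2, 0 and 12 without B12, 3 and 1 without C3, and 0 and 0 with chromosome medians centred. For the small subunit 0 higher and 3 lower were called without B12, 5 and 0 without C3, and 0 and 1 with equal library sums. Rpl26 had 7820.2, 5081 and 6046 in Nat1-/- and 10766 and 10644 in WT (log2 fold change -0.78 ± 0.23, call lost without WTex1, WTex2 or B2, and adjusted p = 0.11 with chromosome medians centred). Of 18 elongation factors and other mRNAs with a terminal oligopyrimidine tract tested, of 19 listed, 0 were higher and 1 lower, of which 1 lower held (median log2 fold change -0.12). As higher and lower, the counts stood at 0 and 2 without B12, 2 and 1 without C3, 0 and 2 with equal library sums, and 0 and 2 by edgeR. Vim, vimentin, had 3012, 3245 and 3627 in Nat1-/- and 5651 and 5778 in WT (log2 fold change -0.80 ± 0.15). No small-subunit gene passed the test, and the smallest p-values belonged to Rps27a (13187, 10946 and 7539 in Nat1-/- and 15219.9 and 16418 in WT, adjusted p = 0.066) and Fau (10568, 7269 and 4609 in Nat1-/- and 4994 and 4646 in WT, adjusted p = 0.15).

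Mitochondrial ribosomal proteins had few calls, 3.95% higher and 6.58% lower. Respiratory chain subunits were called higher about as often as all genes, 18.4% against 16.5%, and 1.32% were lower, against 18.3% of all genes. Of 76 mitochondrial ribosomal proteins tested, of 78 listed, 3 were higher and 5 lower, none of them held (median log2 fold change -0.04). The calls moved to 0 and 0 without WTex1, 0 and 1 without WTex2, 2 and 3 without C1, 2 and 11 without B12, 0 and 2 without B2, 8 and 3 without C3, 0 and 4 with chromosome medians centred, and 1 and 10 with equal library sums. Mrpl10 had 1462, 1389.9 and 1283 in Nat1-/- and 2277 and 2183 in WT (log2 fold change -0.70 ± 0.14, call lost without WTex1, and adjusted p = 0.051 with chromosome medians centred). Mrpl23 had 272, 189 and 357 in Nat1-/- and 579.5 and 523 in WT (log2 fold change -1.06 ± 0.26, call lost without WTex1 or WTex2). Mrpl39 and Mrpl45 had log2 fold changes of 0.47 ± 0.12 and -0.52 ± 0.15, and both lost the call with chromosome medians centred (adjusted p = 0.084 and 0.32). Of 76 nuclear-encoded subunits, all tested, 14 were higher and 1 lower, of which 4 higher held (median log2 fold change 0.28). Leaving out or rescaling changed these counts, given as higher and lower, to 5 and 0 without WTex1, 6 and 0 without WTex2, 13 and 0 without A7, 14 and 0 without B4, 10 and 0 without C1, 17 and 3 without B12, 9 and 0 without B2, 22 and 0 without C3, and 8 and 1 with equal library sums. Cox6c, a subunit of cytochrome c oxidase, had 6870.1, 5823 and 6016 in Nat1-/- and 3368 and 3204 in WT (log2 fold change 0.92 ± 0.14). Cox8a, another, had 8293, 8807 and 11089.8 in Nat1-/- and 4275 and 4814 in WT (log2 fold change 1.04 ± 0.16). Ndufs1, a subunit of complex I, had 7993, 7704 and 8961 in Nat1-/- and 4369.7 and 4788 in WT (log2 fold change 0.84 ± 0.16). Sdhb, a subunit of succinate dehydrogenase, had 6203, 6594 and 8478 in Nat1-/- and 4086 and 4028 in WT (log2 fold change 0.79 ± 0.16). These 4 had adjusted p between 9.9e-04 and 0.0041. Of 8 mitochondrially encoded mRNAs tested, of 13 listed, 0 were higher and 1 lower, none of them held (median log2 fold change -1.11). That is 12.5% lower, against 18.3% of all genes. The counts of higher and lower members became 0 and 0 without WTex1, WTex2, B2 or C3, and 0 and 2 without A7 or B4. mt-Nd6, the complex I subunit encoded on the light strand, had 1537, 1570.2 and 1204 in Nat1-/- and 4414 and 3061 in WT (log2 fold change -1.36 ± 0.43, call lost without WTex1, WTex2, B2 or C3).

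In the list of Eif4g2 and its partners, Eif4g3 had the held change beside Eif4g2 itself. Of 20 eIF4G family and cap-binding genes tested, of 21 listed, 2 were higher and 6 lower, of which 2 lower held (median log2 fold change -0.26). Higher and lower calls numbered 0 and 3 without WTex1, 1 and 4 without WTex2 or B2, 1 and 6 without A7 or C1, 1 and 5 with chromosome medians centred, 1 and 7 with equal library sums, and 1 and 6 by edgeR. Eif4g3, a relative of eIF4G that binds the cap complex, had 284, 303 and 294 in Nat1-/- and 1067 and 1189 in WT (log2 fold change -1.94 ± 0.17, adjusted p = 7.1e-05). Eif4a2, a paralog of the helicase eIF4A, had 13326, 21988 and 29033 in Nat1-/- and 5977 and 8556 in WT (log2 fold change 1.51 ± 0.29, adjusted p = 0.0034, call lost without WTex1). Eif4e3, a cap-binding relative of eIF4E, had 1.08, 2.66 and 3.42 in Nat1-/- and 22.5 and 14.5 in WT (log2 fold change -2.56 ± 0.57, adjusted p = 0.007, call lost without WTex1). Eif4g3 was near 26% of its WT mean in Nat1-/- and had 998, 1376 and 1293 in the Nat1+/- lines. Of 30 other initiation factors, all tested, 2 were higher and 0 lower, none of them held (median log2 fold change 0.00). That is 6.67% higher, against 16.5% of all genes, and 0% lower, against 18.3%. These 2 counts were 0 and 0 without WTex1, A7, C1 or B2, 1 and 0 without WTex2, 1 and 2 without B12, 1 and 3 with chromosome medians centred, 0 and 3 with equal library sums, and 0 and 2 by edgeR. Eif1 and Eif5b, which act in start codon choice and subunit joining, had log2 fold changes of 0.57 ± 0.20 and 0.66 ± 0.22, with calls lost without WTex1, WTex2, A7, C1, B12 or B2 and without WTex1, A7, C1, B2 or C3. Of 39 aminoacyl-tRNA synthetases, all tested, 7 were higher and 1 lower, of which 1 higher held (median log2 fold change 0.22). Shares were 17.9% and 2.56%, against 16.5% and 18.3% of all genes. Other settings gave 2 and 0 without WTex1, 3 and 0 without WTex2, 7 and 2 without B4 or C3, 4 and 1 without B2, and 4 and 3 with equal library sums, higher members first. Pars2, which charges mitochondrial tRNA with proline, had 288, 287 and 289 in Nat1-/- and 155 and 141 in WT (log2 fold change 0.95 ± 0.19). Mars2, its counterpart for methionine, had 708, 522 and 449 in Nat1-/- and 211 and 273 in WT (log2 fold change 1.19 ± 0.23, call lost without WTex1). Hars2, Aars2 and Sars2, also of the mitochondrion, and Dars and Qars of the cytosol were the other members called higher, and Kars, which serves both, was lower.

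Proteasome and chaperonin genes had lower calls at 12.8% and 14.3%, against 18.3% of all genes, and none was higher with every library in the fit. Of 47 proteasome genes, all tested, 0 were higher and 6 lower, of which 2 lower held (median log2 fold change -0.12). In the alternative fits the counts were 0 and 2 without WTex1, 0 and 3 without WTex2 or B2, 0 and 10 without B12, 2 and 6 without C3, and 0 and 3 with chromosome medians centred. Psmb8, a catalytic subunit of the immunoproteasome, which interferon induces, had 5.4, 8.88 and 3.42 in Nat1-/- and 592 and 354 in WT (log2 fold change -6.13 ± 0.92). Psmb9, another such subunit, had 13, 7.99 and 9.11 in Nat1-/- and 105 and 87.1 in WT (log2 fold change -3.16 ± 0.36). Psmb8 and Psmb9 were the 2 members with a held call (adjusted p = 0.001 and 2.8e-04), and Psmb10, the third immunoproteasome subunit, was lower too. Psme4 and Psmd12 fell by 0.67 and 0.68 on the log2 scale, with adjusted p of 0.11 and 0.089 once chromosome medians were centred. Without WTex1 both lost the call. Of 7 CCT chaperonin subunits tested, of 8 listed, 0 were higher and 1 lower, none of them held (median log2 fold change -0.24). Calls in each direction came to 0 and 0 without WTex1, WTex2, C1, B12, B2 or C3, and 0 and 0 with chromosome medians centred. Cct4 had 24251, 26437 and 23784 in Nat1-/- and 34159 and 39759.5 in WT (log2 fold change -0.57 ± 0.20, call lost without WTex1, WTex2, C1, B12, B2 or C3, and adjusted p = 0.29 with chromosome medians centred).

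Cell cycle genes were called higher at 38.5% and lower at 7.69%, against 16.5% and 18.3% of all genes, and few of these calls held. Of 39 cell cycle and replication genes, all tested, 15 were higher and 3 lower, of which 2 higher held (median log2 fold change 0.28). As higher and lower, the counts stood at 2 and 1 without WTex1, 8 and 0 without WTex2, 11 and 5 without B12, 6 and 3 without B2, 9 and 3 with chromosome medians centred, and 8 and 3 with equal library sums. Gmnn, geminin, which restrains replication licensing, had 5424, 5983 and 6284 in Nat1-/- and 3671 and 3696 in WT (log2 fold change 0.68 ± 0.13). Ccnd3, cyclin D3, had 5219, 3187 and 2661 in Nat1-/- and 1385 and 1466 in WT (log2 fold change 1.31 ± 0.27). Ccnb2, a mitotic cyclin, had 6134, 6444 and 7057 in Nat1-/- and 4188 and 4115 in WT (log2 fold change 0.65 ± 0.14, call lost without WTex1). Cdkn2b, an inhibitor of cyclin D kinases, had 35.6, 34.6 and 34.2 in Nat1-/- and 81.6 and 97.8 in WT (log2 fold change -1.33 ± 0.30, call lost without WTex2). Both cyclins were above WT in each line, and the replication genes Mcm3, Mcm4, Mcm6, Mcm7, Pola1 and Pold1 were also called higher, while Ccnd2 and Cdk6 were lower. Of 58 replication-dependent histone genes tested, of 66 listed, 1 was higher and 6 lower, of which 3 lower held (median log2 fold change -0.32). That is 1.72% and 10.3%, against 16.5% and 18.3% of all genes. The calls moved to 1 and 3 without WTex1, 0 and 6 without WTex2, 1 and 15 without B12, and 1 and 11 with equal library sums. Hist3h2ba had 201, 147 and 211 in Nat1-/- and 1753 and 1069 in WT (log2 fold change -2.89 ± 0.35). Hist1h2aa had 70.2, 40.9 and 12.5 in Nat1-/- and 819 and 714 in WT (log2 fold change -4.48 ± 0.65). Hist1h2ba had 369, 245 and 152 in Nat1-/- and 771 and 771 in WT (log2 fold change -1.68 ± 0.31). The last 2 are known as testis histones, and Hist2h2ab was the member called higher (log2 fold change 1.20 ± 0.33, call lost without WTex2). Histone genes are near-identical copies without poly(A) tails, so their counts are uncertain. The 7 genes given with values had adjusted p between 3.5e-04 and 0.0077.

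Epithelial and junction genes were more often lower than higher, with 45% of those tested lower, against 18.3% of all genes. Of 20 epithelial and junction genes, all tested, 2 were higher and 9 lower, of which 1 higher and 7 lower held (median log2 fold change -0.45). Leaving out or rescaling changed these counts, given as higher and lower, to 1 and 7 without WTex1, and 1 and 8 without B2. Cdh3, P-cadherin, had 735, 551 and 552 in Nat1-/- and 2111 and 2088 in WT (log2 fold change -1.79 ± 0.16). Cldn6, a claudin of stem and early epithelial cells, had 531, 610.1 and 448 in Nat1-/- and 2268 and 1401 in WT (log2 fold change -1.76 ± 0.21). Itgb1, the common integrin beta chain, had 3686, 4886 and 5789 in Nat1-/- and 12256 and 13303 in WT (log2 fold change -1.44 ± 0.19). Cdh1, Cldn3, Ocln, Esrp1 and Zeb2 fell as well, and Itga6 and Ctnna1 were higher. Markers of blood and endothelium were few: of 5 tested, of 12 listed, 1 was higher and 2 lower, of which 1 higher and 2 lower held (median log2 fold change 0.76). The counts of higher and lower members became 2 and 2 without B12. Cd68, a lysosomal protein of macrophages, had 677, 678 and 972 in Nat1-/- and 181 and 195 in WT (log2 fold change 2.02 ± 0.22). Tek, the angiopoietin receptor, had 49.7, 26.6 and 70.6 in Nat1-/- and 312 and 266 in WT (log2 fold change -2.64 ± 0.40). Cd34, a stem and endothelial sialomucin, had 8.64, 3.55 and 5.7 in Nat1-/- and 101 and 44.5 in WT (log2 fold change -3.36 ± 0.62). Ptprc, Cd48 and Cdh5, the defining genes of these cells, were under the minimum and not tested, and the list summed to 987, 1158 and 1709 in Nat1-/- and 797 and 847 in WT. Of 14 listed genes of 2-cell-like cells 12 had values, and none of these reached the minimum. The 6 genes with values had adjusted p between 8.0e-05 and 0.0028.

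Y-linked genes differed among the lines. Of 6 tested, of 8 listed, 0 were higher and 2 lower, none of them held (median log2 fold change -0.94). That is 33.3% lower, against 18.3% of all genes. Higher and lower calls numbered 0 and 0 without WTex1, and 0 and 4 without C3. Eif2s3y, a subunit of eIF2, had 1395, 1485 and 2140.5 in Nat1-/- and 3095 and 2937 in WT (log2 fold change -0.88 ± 0.19, call lost without WTex1). Kdm5d, a histone demethylase, had 4.32, 5.33 and 7.97 in Nat1-/- and 99.4 and 81.3 in WT (log2 fold change -3.76 ± 0.84, call lost without WTex1). The median deviation of the list was -1.52, -0.95 and 0.53 in B12, B2 and C3, against 0.27 and 0.35 in WTex1 and WTex2, and 2, 2 and 1 of 8 members were at 0 in the lines, against 0 and 0 in WT. B12 and B2 lay below C3 and both WT cultures, and the part of this in the other results was not tested.

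Total RNA of the same cultures mostly moved with the footprints. In total RNA 4839 of 13813 genes (35.0%) were called, 16.2% higher and 18.9% lower. Of 2165 genes with higher footprints that could be tested in RNA, 1622 were also called higher there, out of 2231 called higher in RNA. Of 2352 with lower footprints 1995 were also called lower, out of 2608 in RNA. Both libraries of a culture come from the same cells, so the readouts are not independent. None was called higher in footprints and lower in RNA, and 3 were called lower in footprints and higher in RNA: Mark3, Rnf19b and Wnk1. Mark3, a polarity kinase, was the held one. Its RPF values were 1159, 1031 and 1029 in B12, B2 and C3, against 1739 and 1767 in WTex1 and WTex2 (log2 fold change -0.71 ± 0.13, adjusted p = 0.0027). Its total RNA log2 fold change was 0.40 (adjusted p = 0.024), so footprints and RNA lay on opposite sides of WT.

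Translational efficiency (TE), the footprint change minus the RNA change, was tested as an interaction over all 16 libraries. That test called 1 of 12933 genes (0.00773%), Mark3, which was lower (adjusted p = 0.021). Footprints and RNA of 1 culture are paired by design, and a fit with a term for each culture called 158 genes, 30 higher (0.232%) and 128 lower (0.990%). Of the 185 genes chosen by the naming rule, 12 were among these 158, 3 higher and 9 lower. TE of Eif4g2 was -1.78 on the log2 scale (adjusted p = 0.41, and 0.0085 with the culture term). Sos1 had -1.30 (0.072 and 0.01) and Map3k3 -1.11 (0.3 and 0.0021). For these genes the footprints were thus below what the RNA change alone gives, by a difference that passed the test with the culture term and not without it. Crebbp, Apc, Ccng1, Tpm1 and Kdm5d were the other named genes with a lower TE under the culture term, from -2.66 for Kdm5d to -0.67 for Ccng1, and Ldhal6b, Tgm2 and Mars2 those with a higher one. Rnf19b and Wnk1 had adjusted p of 0.0021 and 0.012 in that fit.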

How the data were processed

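Ribosome footprints (RPF) and total RNA of 8 cultures were measured in 16 libraries, with 3 Nat1-/- lines, 3 Nat1+/- lines and 2 WT cultures. The authors deposited 1 table of normalised counts (signal: read counts per gene divided by a size factor of each library). The submitters' processing notes list TopHat2 2.1.0 and Bowtie2 2.2.8 for alignment tools, HTSeq 0.6.1, DESeq2, cutadapt 1.9.1 and bcl2fastq 2.17, and the mouse builds GRCm38.p4 and mm10. They do not say whether counting used strand or what was done with reads of repeated genes. All deposited signal values were whole multiples of what 1 read is worth (100% within 0.001 of a read), so reads could be recovered; libraries held 17480387 to 23777667 footprint reads and 13206434 to 42562496 total RNA reads. Size factors remove a change shared by most genes.

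Genes with a mean of at least 10 over the 8 libraries of an assay were tested on log2(value + 1) with limma 3.58.1 in R 4.3.3 (eBayes with trend, 3 genotype means over 8 libraries, two-sided, Benjamini-Hochberg over all genes tested). TE was the interaction of assay and genotype over 16 libraries. RPF and total RNA of a culture deviate together (correlation 0.384 to 0.821), so values with a culture term stand beside it. Alternatives were DESeq2 1.42.0 and edgeR 4.0.16 (quasi-likelihood) on the whole reads, other pseudocounts, filters and scalings, and each culture left out. Those on chromosomes, with chromosome names from RefSeq GRCm38.p6 matched by gene name (21290 of 21977), were chosen after the data were seen, as were the Gbp promoters. The lists of genes, 47 in all, and the rules were chosen with earlier results of these data known.

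Named were Eif4g2, Sos1 and Map3k3, the 10 held genes with the widest change in each direction at a mean of at least 50 and the 8 at a mean of at least 1000, held genes whose RNA was called the opposite way, and up to 4 called members of each list by adjusted p, held ones first. Predicted genes were passed over, and a few named by the rule are not reported here. The pipeline was tested on simulated data: among 13110 genes in RPF, it recovered 4.7% of 64 genes changed 1.5-fold, 29.0% of 69 changed 2-fold and 77.6% of 67 changed 4-fold, with 6 false calls. Far fewer genes were changed there than were called in the data, and no chromosome-wide differences were simulated. These rates are therefore no estimate for the calls above.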

Additional observations from a re-analysis of the deposited data

How the results depend on the processing

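The RPF count of 4567 called genes was 3646 with a mean of at least 50 (2015 higher, 1631 lower), 4920 with no filter, 4638 with TMM factors, 4301 with equal library sums, 4445 by edgeR, 5102 by DESeq2, 4087 with no trend and 4073 from the Nat1-/- and WT libraries alone. Without chromosomes 8 and 11, 3843 of 11288 genes were called, and with chromosome medians centred 4017, 1561 higher and 2456 lower. Leaving out 1 culture gave 1932 to 5101 calls, with 741 to 2483 higher and 1191 to 2618 lower. In total RNA, where 4839 genes were called (2231 higher, 2608 lower), it gave 2412 to 5179, with 1010 to 2419 higher and 1402 to 2760 lower. The 1 TE call became 35 by DESeq2, 0 with no trend, 0 from the Nat1-/- and WT libraries alone, 0 to 5 with 1 culture left out and 158 with a replicate block by culture. The Eif4g2 fold change stayed between -4.09 and -3.74 with 1 culture left out. The cause of these moves was not tested, apart from the smaller number of cultures or genes in a fit.

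Replicate numbers of the labels did not pair the RPF libraries: same-numbered cultures had correlations of their deviations between -0.126 and 0.249. With the replicate block 3690 genes were called, 1636 higher and 2054 lower, and 11 of the 185 named genes lost their call, and 9 of the 47 lists moved by over 1.5 times: imprinted growth regulators had 7 calls in place of 11, polycomb 5 in place of 10, apoptosis 5 in place of 9, endoplasmic reticulum genes 2 in place of 6, cholesterol synthesis 3 in place of 6, glycolysis 4 in place of 7, mitochondrial ribosomal proteins 5 in place of 8, and mitochondrially encoded mRNAs and CCT subunits 0 in place of 1.

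Limits are the 2 WT cultures, the low depth of the 2154 genes with a mean of 10 to 50, and chromosome copy numbers that were not measured here. The median SE of a log2 fold change was 0.23.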

Other observations

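Chromosome 1 genes were lower in both WT cultures than in the lines, and differed among lines of 1 genotype. The median deviation of its 527 genes with a mean RPF value of at least 100 was 0.17, -0.04 and -0.05 in B12, B2 and C3, 0.14, 0.37 and -0.02 in the Nat1+/- lines A7, B4 and C1, and -0.24 in both WT cultures. Total RNA of chromosome 1 genes gave 0.24, -0.06 and -0.07 in the Nat1-/- lines, 0.12, 0.34 and -0.01 in the Nat1+/- lines, and -0.22 and -0.25 in WT. B12 thus stood above B2 and C3, and B4 above every other culture, in both assays.

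Of 465 tested genes on the X chromosome 61 (13.1%) were higher and 135 (29%) lower in Nat1-/- than in WT, 15 and 76 of them with a held call, and the median log2 fold change was -0.17. On chromosome 3, 99 of 599 genes (16.5%) were higher and 131 (21.9%) lower. Among all genes 16.5% were higher and 18.3% lower, and neither chromosome was tested against the rest of the genome.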
